A study of Mus musculus with 9 samples.

Results

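Cortical and hippocampal excitatory neuron genes were followed in RNA sequencing libraries of paraventricular thalamus (PVT) tissue from mice given lipopolysaccharide (LPS). The members are 34 named genes, chosen as transcription factors and markers of forebrain excitatory neurons and found by name in the deposited table of 21899 genes. Each name matched 1 row, and all 34 passed the minimum on counts and were tested among 14837 genes. The 9 libraries form 3 groups of 3, all from wild-type mice: phosphate-buffered saline (PBS) with tissue taken on day 1, LPS with tissue taken on day 1, and LPS with tissue taken on day 7. The injections were given into the peritoneal cavity. LPS is a bacterial cell wall component that activates innate immunity. The labels state no strain, age, sex or dose, and nothing on pooling of animals. No PBS group of day 7 was analysed here: where the 7 day libraries are set against PBS, day and treatment cannot be told apart.

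The pallium is the part of the forebrain that forms the neocortex, hippocampus and amygdala, and its projection neurons release glutamate. Basic helix-loop-helix factors of the NeuroD family drive their differentiation, while Tbr1, Fezf2, Cux2 and Rorb mark neurons of different cortical layers, and Prox1 marks granule cells of the dentate gyrus. Mature pallial neurons load glutamate into vesicles with VGLUT1 (Slc17a7) and hold much Camk2a and Nrgn in their dendrites. Thalamic relay and midline neurons use mainly VGLUT2 (Slc17a6) instead. Several members are not exclusive to the pallium. For example, granule cells of the cerebellum also express Slc17a7 and Neurod2, striatal projection neurons express Camk2a, and interneurons express Prox1. In bulk tissue, fewer cells of a type and less RNA per cell cannot be told apart.

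Library totals were 13211422 to 17210526 gene counts. Counts of 4 Y-linked genes together (Ddx3y, Eif2s3y, Uty and Kdm5d) were 1, 0 and 0 in the PBS libraries and 1057 to 1662 in the 6 LPS libraries, so each comparison with PBS also separates libraries with and without Y-linked transcripts. Whether replicates are separate animals is not stated, so the spread behind the p-values may be technical and is that of these samples alone. That spread was small, with a median coefficient of variation over the 34 members of 4.66% in PBS, 3.98% 1 day after LPS and 4.97% at 7 days. The highest coefficient of variation among the 34 was 30.2% in PBS (Emx2), 36.9% 1 day after LPS (Emx1) and 12.8% at 7 days (Emx1). Thalamic identity genes were present, for example Tcf7l2 at 66.3, 69.2 and 65.6 CPM (counts scaled to library size) in PBS and Gbx2, which patterns the thalamus, at 6.23, 7.02 and 6.47 CPM. Genes of other forebrain regions were present in PBS as well, for example the striatal gene Adora2a at 114.9, 121.6 and 119.8 CPM.

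Levels of different genes were compared per gene length, as the deposited FPKM (mean ± SD, n = 3). In PBS, Camk2a, the calcium and calmodulin dependent kinase subunit of excitatory synapses, stood highest at 317 ± 13.4 FPKM, followed by Nrgn, a postsynaptic calmodulin-binding protein, at 276 ± 21.3 FPKM. The individual values of these 2 genes did not overlap (306.6 to 332.2 and 251.8 to 288.8 FPKM). Slc17a7 came next at 130.4 ± 1.41 FPKM, while the thalamic transporter gene Slc17a6 stood at 36.5 ± 0.826 FPKM. The FPKM ratio of Slc17a7 to Slc17a6 was 3.47 to 3.70 in PBS, 6.34 to 6.59 1 day after LPS and 3.62 to 4.36 at 7 days. Transcription factors were lower: Zbtb18, a repressor needed for cortical projection neurons, had 25.4 ± 0.563 FPKM, Tbr1 13.5 ± 0.602 FPKM and Neurod2 9.95 ± 0.101 FPKM. The homeobox genes Emx1 and Emx2, which pattern the cortex, had 2.24 ± 0.178 and 0.934 ± 0.284 FPKM. Only Dsp, which encodes the desmosome protein desmoplakin and marks dentate granule cells, was lower among the 34, at 0.393 ± 0.0730 FPKM. Neighbours in the lower part of this order, such as C1ql2 and Fibcd1 (5.94 ± 0.370 and 5.85 ± 0.448 FPKM), lay within each other's spread.

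**Figure D1:**
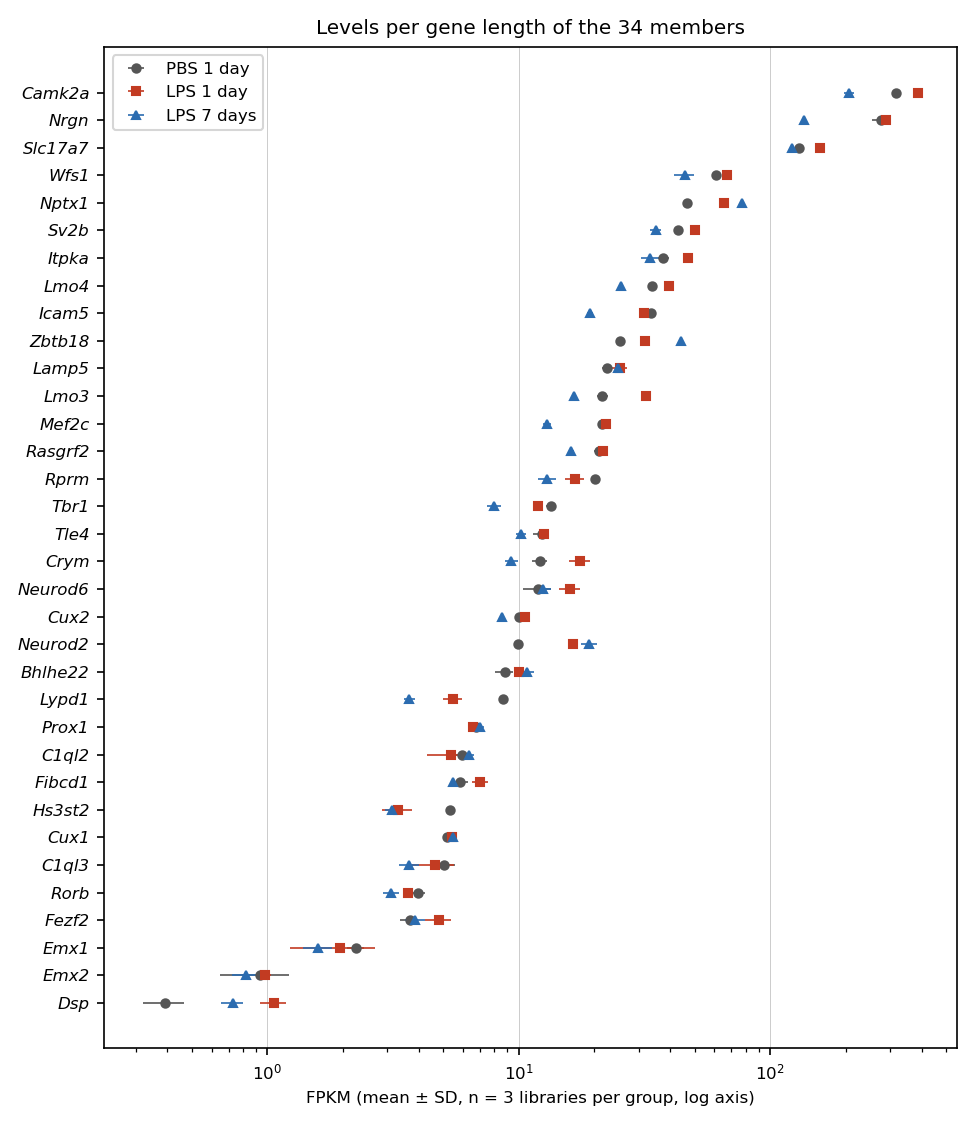
FPKM of each of the 34 members on a log axis, with the genes ordered by their PBS level; symbols are group means and bars the SD over 3 libraries. Camk2a and Nrgn stand highest in PBS, at 317 and 276 FPKM, and Dsp lowest at 0.393 FPKM.

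The sequences upstream of Neurod2 and Nrgn are shown because these genes moved in opposite directions at 7 days. Each window runs from 250 bases before to 50 bases after the annotated start, from RefSeq on GRCm38.p6, whose positions differ from the GRCm39 positions of the deposited table. Capitals mark CAGATG or its reverse complement CATCTG, an E-box of the kind that NeuroD factors bind, searched on both strands.
Neurod2, chr11:98329596-98329895, minus strand: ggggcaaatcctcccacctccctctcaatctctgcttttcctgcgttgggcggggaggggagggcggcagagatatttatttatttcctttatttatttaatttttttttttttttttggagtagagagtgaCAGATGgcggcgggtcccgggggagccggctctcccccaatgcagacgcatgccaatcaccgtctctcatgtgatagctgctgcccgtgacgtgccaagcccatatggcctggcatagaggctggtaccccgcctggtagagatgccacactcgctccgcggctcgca
Nrgn, chr9:37552696-37552995, minus strand: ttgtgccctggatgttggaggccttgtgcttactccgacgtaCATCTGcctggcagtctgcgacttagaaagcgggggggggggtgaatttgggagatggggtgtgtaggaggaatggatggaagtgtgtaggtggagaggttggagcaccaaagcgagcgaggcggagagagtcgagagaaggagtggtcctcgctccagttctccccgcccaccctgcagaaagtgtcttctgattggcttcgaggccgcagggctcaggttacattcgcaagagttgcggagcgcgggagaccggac
Both windows hold the motif once, 118 and 208 bases before the start. The windows of Neurod6 and Wfs1, searched in the same way and not shown, hold it 0 and 1 times. Promoter windows were found for 30 of the 34 members, and 8 of these genes (26.7%) had the motif in at least 1 window, against 19.2% of 27025 genes with a window. Per window the shares were 25.0% of 48 member windows and 17.2% of all 32851. A match describes the letters and not a bound site.

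At day 1, LPS libraries were set against PBS libraries to see what systemic LPS changes in PVT tissue within a day. Most members that changed were higher: 17 of 34 rose, 4 fell and 13 did not pass (edgeR quasi-likelihood adjusted p under 0.05 over all 14837 genes tested). Over all genes tested, 24.9% were called higher and 24.2% lower and 49.1% either way, beside 61.8% of the members either way. Libraries of the 2 groups did not overlap for 22 members, 18 higher and 4 lower in LPS, against 54.5% of all genes tested (27.4% higher and 27.1% lower). The median log2 fold change was 0.13 for the members and -0.01 for all genes tested. Changes were small, and only Neurod2, Lmo3 and Dsp rose at least 1.5-fold while Hs3st2 and Lypd1 fell by as much; 8.54% and 6.38% of all genes tested reached that fold in these directions. The summed level of the members was 6129 to 6413 CPM in PBS and 7345 to 7394 CPM after LPS, with no overlap. Camk2a alone supplied 38.2% of this sum in PBS and 48.3% of its difference at 1 day, and the other 33 members summed to 3804 to 3906 CPM in PBS and 4423 to 4447 CPM after LPS.

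The second comparison sets LPS at day 7 against PBS at day 1. Most members were lower at 7 days: 21 of 34 fell, 5 rose and 8 did not pass (edgeR quasi-likelihood, same threshold). Over all genes tested 18.9% were called lower, 16.8% higher and 35.6% either way. Libraries did not overlap for 27 members, 6 higher and 21 lower at 7 days, against 44.2% of all genes tested (21.5% higher and 22.7% lower). The median log2 fold change was -0.32 for the members and 0.00 for all genes tested. At least 1.5-fold falls were found for Tbr1, Mef2c, Rprm, Camk2a, Nrgn, Hs3st2, Icam5 and Lypd1 (6.05% of all genes tested), and rises of that size for Neurod2, Zbtb18, Dsp and Nptx1 (5.94%). The summed level was 4698 to 4889 CPM, below every PBS library; Camk2a supplied 61.6% of that difference, and without it the sum was 3276 to 3322 CPM. With plain library totals in place of TMM scaling, calls over all genes turned from 2489 higher and 2798 lower to 3183 higher and 2326 lower (57.8% higher instead of 47.1%), while the members stood at 6 higher and 21 lower. Both comparisons share the PBS libraries, so the values of a gene at the 2 times are given side by side.

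**Figure D2:**
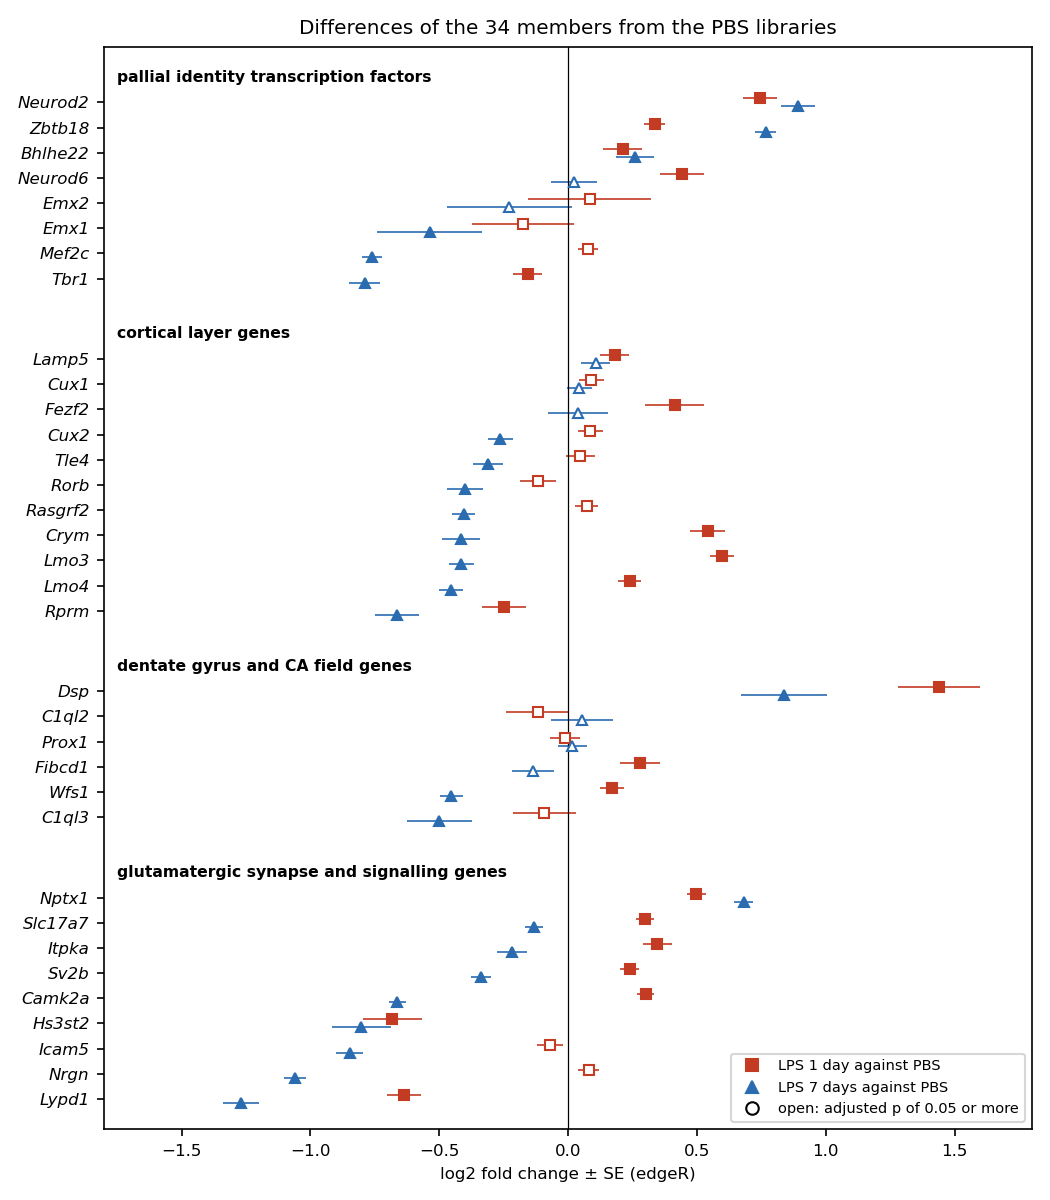
Log2 fold change ± SE against the PBS libraries for each member, by role; squares are LPS at day 1, triangles LPS at day 7, and open symbols did not pass. In the synapse and signalling group 8 of 9 triangles lie left of 0, with Lypd1 farthest at -1.27, while Nptx1 lies right of 0 at both times. Of all genes tested, 18.9% were called lower at 7 days.

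Among the 8 pallial identity transcription factors, 4 rose, 1 fell and 3 did not pass at 1 day, and 3 rose, 3 fell and 2 did not pass at 7 days. Called either way were 62.5% and 75.0% of the 8, beside 49.1% and 35.6% of all genes tested. Neurod2 (GRCm39 chromosome 11, 98216241 to 98220474), which drives differentiation and synapse maturation of excitatory neurons, had 32.0, 31.3 and 31.1 CPM in the PBS libraries, 51.3, 52.1 and 54.6 CPM 1 day after LPS and 54.1, 63.2 and 58.0 CPM at 7 days. All 6 LPS libraries lay above all PBS libraries, with log2 fold changes of 0.75 ± 0.07 at 1 day and 0.89 ± 0.07 at 7 days (edgeR adjusted p = 2.31e-13 and 1.51e-16). Its relative Neurod6 (chromosome 6, 55654807 to 55658248), a marker of postmitotic pallial neurons that is not typical of cerebellar granule cells, had 29.0, 26.0 and 22.2 CPM in the PBS libraries, 31.0, 36.8 and 37.1 CPM 1 day after LPS and 24.4, 25.5 and 28.6 CPM at 7 days. All day 1 LPS libraries lay above PBS while the 7 day libraries overlapped with it, with log2 fold changes of 0.44 ± 0.09 at 1 day and 0.02 ± 0.09 at 7 days (edgeR adjusted p = 2.76e-05 and 0.87). Zbtb18 (chromosome 1, 177269917 to 177278330) had 160.5, 157 and 152 CPM in the PBS libraries, 199, 195 and 199.7 CPM 1 day after LPS and 263, 269 and 267 CPM at 7 days. The 3 groups did not overlap and the 7 day libraries were highest, with log2 fold changes of 0.34 ± 0.04 and 0.77 ± 0.04 (edgeR adjusted p = 1.25e-09 and 2.2e-22).

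Mef2c and Tbr1 were lower than in PBS at 7 days. Mef2c (chromosome 13, 83652153 to 83815199), an activity-regulated factor of neurons that microglia and endothelium also express, had 335, 334 and 343 CPM in the PBS libraries, 354, 349.7 and 364 CPM 1 day after LPS and 205, 194 and 198 CPM at 7 days. It did not pass at 1 day (log2 fold change 0.08 ± 0.04, edgeR adjusted p = 0.0814) and fell at 7 days by 0.76 on the log2 scale (SE 0.04, edgeR adjusted p = 4.95e-23), with all 7 day libraries below the others. Tbr1 (chromosome 2, 61633274 to 61644458), the T-box factor of early-born and deep-layer neurons, had 77.4, 75.0 and 70.3 CPM in the PBS libraries, 64.3, 68.4 and 67.0 CPM 1 day after LPS and 39.8, 43.3 and 45.8 CPM at 7 days. Its log2 fold changes were -0.16 ± 0.06 at 1 day and -0.79 ± 0.06 at 7 days (edgeR adjusted p = 0.0206 and 4.08e-16). The 1 day call of Tbr1 was lost without PBS replicate 1, PBS replicate 2 or LPS 1 day replicate 1 (edgeR adjusted p = 0.0978, 0.0508 and 0.0831), while the 7 day call did not depend on 1 library. Bhlhe22, a helix-loop-helix factor of cortical projection neurons, had log2 fold changes of 0.21 ± 0.08 and 0.26 ± 0.07 (edgeR adjusted p = 0.0184 and 0.00483); without PBS replicate 1 neither passed (edgeR adjusted p = 0.151 and 0.0654), nor did the 1 day value without LPS 1 day replicate 1 (0.0798).

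The Emx genes were rare. Emx1 had 5.41, 4.75 and 4.63 CPM in PBS, 3.24, 6.17 and 3.59 CPM 1 day after LPS and 3.43, 3.83 and 2.96 CPM at 7 days. Its 7 day log2 fold change of -0.54 ± 0.20 passed (edgeR adjusted p = 0.0335) but was lost with DESeq2 (adjusted p = 0.0765) and without PBS replicate 1 or 2 or LPS 7 day replicate 1 or 3 (edgeR adjusted p = 0.123, 0.0507, 0.0575 and 0.126). At 1 day Emx1 did not pass, except without LPS 1 day replicate 2 (log2 fold change -0.17 ± 0.20 with all libraries, -0.53 without it). Emx2 passed at neither time (log2 fold change 0.08 ± 0.24 and -0.23 ± 0.24), and differences of this size were not detectable at its depth of 33 to 60 counts per library.

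Of the 11 cortical layer genes, 5 rose, 1 fell and 5 did not pass at 1 day, and 8 fell and 3 did not pass at 7 days. The share called either way was 54.5% at 1 day, near the 49.1% of all genes tested, and 72.7% at 7 days, beside 35.6%. Lmo3 (chromosome 6, 138339916 to 138558966), a LIM-only cofactor of deep-layer cortex and amygdala, had 105, 114 and 113 CPM in the PBS libraries, 159.8, 174 and 169 CPM 1 day after LPS and 83.1, 82.7 and 83.7 CPM at 7 days. The day 1 LPS libraries were highest and the 7 day libraries lowest, without overlap, with log2 fold changes of 0.60 ± 0.05 and -0.42 ± 0.05 (edgeR adjusted p = 1.52e-15 and 4.69e-10). Lmo4 (chromosome 3, 143894291 to 143910981), a related cofactor of upper and deep layers, showed the same order of groups with 121, 123 and 117 CPM in the PBS libraries, 144, 145 and 138 CPM 1 day after LPS and 87.0, 87.1 and 89.5 CPM at 7 days. Its log2 fold changes were 0.24 ± 0.05 and -0.46 ± 0.05 (edgeR adjusted p = 1.8e-05 and 9.63e-12). Crym (chromosome 7, 119785603 to 119801334), which encodes a thyroid hormone binding protein of deep-layer and hippocampal neurons, had 38.4, 43.4 and 42.1 CPM in the PBS libraries, 66.5, 59.2 and 55.0 CPM 1 day after LPS and 28.7, 32.6 and 31.5 CPM at 7 days. Again no libraries of different groups overlapped, with log2 fold changes of 0.54 ± 0.07 at 1 day and -0.41 ± 0.07 at 7 days (edgeR adjusted p = 4.7e-09 and 6.85e-06).

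Cux1 and Cux2, homeobox factors of upper layers, did not pass at 1 day (log2 fold changes 0.09 and 0.09), and at 7 days Cux2 had a log2 fold change of -0.26 ± 0.05 (edgeR adjusted p = 1.35e-05) while Cux1 did not pass (log2 fold change 0.04 ± 0.05, edgeR adjusted p = 0.523). Rasgrf2 (chromosome 13, 92028519 to 92268164), a Ras activator used as an upper-layer marker, had 179, 164 and 179.7 CPM in the PBS libraries, 179, 182 and 189 CPM 1 day after LPS and 128, 136 and 131 CPM at 7 days. The 7 day libraries lay below all others, and the log2 fold changes were 0.07 ± 0.04 and -0.41 ± 0.04 (edgeR adjusted p = 0.168 and 6.53e-11). Lamp5, a vesicle protein of upper layers and of some interneurons, had a log2 fold change of 0.18 ± 0.06 at 1 day (edgeR adjusted p = 0.00659), but the libraries overlapped and the call was lost without LPS 1 day replicate 2 (edgeR adjusted p = 0.0664). At 7 days Lamp5 did not pass (log2 fold change 0.11 ± 0.06), except with library totals (0.15, edgeR adjusted p = 0.0347). Rorb, the layer 4 nuclear receptor that thalamic neurons also express, did not pass at 1 day (log2 fold change -0.12) and had a log2 fold change of -0.40 ± 0.07 at 7 days (edgeR adjusted p = 5.93e-06).

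Deep-layer genes gave both directions. Fezf2, which specifies neurons that project below the cortex, rose at 1 day (log2 fold change 0.41 ± 0.11, edgeR adjusted p = 0.00237) and did not pass at 7 days (log2 fold change 0.04 ± 0.12). Tle4, a corepressor of layer 6 neurons, did not pass at 1 day (log2 fold change 0.05 ± 0.06) and fell at 7 days (log2 fold change -0.31 ± 0.06, edgeR adjusted p = 1.5e-05). Rprm, a cell cycle inhibitor used as a deep-layer marker, was lower at both times, with log2 fold changes of -0.25 ± 0.08 and -0.66 ± 0.09 (edgeR adjusted p = 0.0126 and 8.63e-09). Its 1 day call was lost without PBS replicate 3 or LPS 1 day replicate 3 (edgeR adjusted p = 0.0514 and 0.111).

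The 6 dentate gyrus and CA field genes gave 3 rises and 3 that did not pass at 1 day, and 1 rise, 2 falls and 3 that did not pass at 7 days. At both times 3 of 6 were called, near the background of 49.1% of all genes tested at 1 day and beside 35.6% at 7 days. Dsp (chromosome 13, 38335270 to 38382553), which epithelial and meningeal cells express too, had 4.58, 3.73 and 3.13 CPM in the PBS libraries, 10.9, 9.03 and 11.4 CPM 1 day after LPS and 7.35, 6.11 and 7.16 CPM at 7 days. It was the member with the largest fold change at 1 day, log2 1.44 ± 0.16 (edgeR adjusted p = 1.1e-10), and stayed above PBS at 7 days at log2 0.84 ± 0.17 (edgeR adjusted p = 4.93e-05). The other dentate markers did not follow it: Prox1 had 58.4, 56.1 and 56.0 CPM in the PBS libraries, 56.1, 56.1 and 56.8 CPM 1 day after LPS and 58.2, 55.2 and 59.1 CPM at 7 days, and its groups overlapped throughout (log2 fold change -0.01 ± 0.06 and 0.02 ± 0.06, edgeR adjusted p = 0.866 and 0.855). C1ql2, a synaptic organizer secreted by mossy fibres, passed at neither time (log2 fold change -0.12 ± 0.12 and 0.05 ± 0.12). Its relative C1ql3 (chromosome 2, 13008268 to 13016617) had 11.5, 13.6 and 13.6 CPM in the PBS libraries, 10.02, 14.4 and 11.5 CPM 1 day after LPS and 9.93, 8.39 and 8.99 CPM at 7 days. C1ql3 overlapped with PBS at 1 day (log2 fold change -0.09 ± 0.12, edgeR adjusted p = 0.55) and was below it at 7 days (log2 fold change -0.50 ± 0.13, edgeR adjusted p = 0.00118).

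The CA field markers rose slightly at 1 day. Wfs1 (chromosome 5, 37123448 to 37146549), an endoplasmic reticulum protein abundant in CA1 and also in striatum and amygdala, had 238, 227 and 229.9 CPM in the PBS libraries, 265, 262 and 256 CPM 1 day after LPS and 149.9, 181 and 177 CPM at 7 days. Its log2 fold changes were 0.17 ± 0.05 and -0.45 ± 0.05 (edgeR adjusted p = 0.00156 and 8.44e-12), and the 3 groups did not overlap. Fibcd1 (chromosome 2, 31703302 to 31736017), a chitin-binding receptor of CA1 neurons, had 29.0, 25.4 and 29.4 CPM in the PBS libraries, 36.0, 31.3 and 34.6 CPM 1 day after LPS and 24.9, 25.4 and 25.9 CPM at 7 days. It had a log2 fold change of 0.28 ± 0.08 at 1 day (edgeR adjusted p = 0.00267) and did not pass at 7 days (log2 fold change -0.14 ± 0.08, edgeR adjusted p = 0.191), where the libraries overlapped with PBS.

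The 9 glutamatergic synapse and signalling genes included the 3 members with the highest FPKM in PBS, Camk2a, Nrgn and Slc17a7. The role group is broad and also holds Lypd1, a modulator of nicotinic receptors, and the sulfotransferase gene Hs3st2. At 1 day 5 rose, 2 fell and 2 did not pass, and at 7 days 8 fell and 1 rose. Camk2a had 2508, 2295 and 2341 CPM in the PBS libraries, 2928, 2949 and 2922 CPM 1 day after LPS and 1422, 1525 and 1567 CPM at 7 days. All day 1 LPS libraries were above and all 7 day libraries below PBS, with log2 fold changes of 0.30 ± 0.03 and -0.66 ± 0.03 (edgeR adjusted p = 1.57e-10 and 1.12e-22). Slc17a7 (chromosome 7, 44813373 to 44825566) had 719.6, 699.6 and 701 CPM in the PBS libraries, 894, 865 and 849 CPM 1 day after LPS and 643, 639 and 652 CPM at 7 days. The order of groups was that of Camk2a, with log2 fold changes of 0.30 ± 0.03 and -0.13 ± 0.03 (edgeR adjusted p = 1.69e-10 and 0.00125). Sv2b (chromosome 7, 74764642 to 74959010), a synaptic vesicle glycoprotein, had 357, 360.1 and 373 CPM in the PBS libraries, 434, 419 and 433 CPM 1 day after LPS and 301, 286 and 275 CPM at 7 days. It had log2 fold changes of 0.24 ± 0.04 and -0.34 ± 0.04 (edgeR adjusted p = 6.02e-07 and 1.51e-10).

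Itpka (chromosome 2, 119572818 to 119581744), an inositol trisphosphate kinase of dendritic spines, had 65.3, 71.2 and 69.7 CPM in the PBS libraries, 92.1, 85.7 and 84.3 CPM 1 day after LPS and 61.8, 61.6 and 54.0 CPM at 7 days. Its log2 fold changes of 0.35 ± 0.06 and -0.22 ± 0.06 also differed in sign (edgeR adjusted p = 1.31e-06 and 0.00241), and the 7 day call was lost without LPS 7 day replicate 3 (edgeR adjusted p = 0.053). Nrgn (chromosome 9, 37455788 to 37464200) had 424, 420.4 and 367 CPM in the PBS libraries, 409, 440.3 and 431 CPM 1 day after LPS and 193, 191 and 199 CPM at 7 days. PBS and day 1 LPS libraries overlapped (log2 fold change 0.08 ± 0.04, edgeR adjusted p = 0.107; 0.0263 without PBS replicate 1 and 0.0471 without PBS replicate 2), whereas the 7 day libraries were at 0.480 of the PBS level, a log2 fold change of -1.06 ± 0.04 (edgeR adjusted p = 7.03e-27). Icam5 (chromosome 9, 20943369 to 20950332), an adhesion molecule of telencephalic dendrites, had 102, 94.1 and 102 CPM in the PBS libraries, 95.3, 97.4 and 91.4 CPM 1 day after LPS and 56.0, 53.7 and 56.0 CPM at 7 days. It did not pass at 1 day (log2 fold change -0.07 ± 0.05, edgeR adjusted p = 0.26) and fell at 7 days (log2 fold change -0.85 ± 0.05, edgeR adjusted p = 2.83e-19).

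Lypd1 and Hs3st2 were lower and Nptx1 higher at both times. Lypd1 (chromosome 1, 125795359 to 125840838), an anchored modulator of nicotinic receptors, had 61.1, 62.5 and 59.3 CPM in the PBS libraries, 36.3, 38.4 and 42.7 CPM 1 day after LPS and 25.5, 23.9 and 26.4 CPM at 7 days. It fell at 1 day and had the largest 7 day fall of the 34, with log2 fold changes of -0.64 ± 0.07 and -1.27 ± 0.07 (edgeR adjusted p = 2.3e-11 and 1.61e-21). Gpr39, the only gene in the table that overlaps a member's span, lies on the opposite strand of Lypd1 and had group means of 1.33 to 3.67 counts. Hs3st2, a heparan sulfate sulfotransferase, had 16.7, 16.4 and 15.9 CPM in the PBS libraries, 11.5, 10.6 and 8.70 CPM 1 day after LPS and 9.13, 8.88 and 10.1 CPM at 7 days. Both LPS groups lay below PBS, with log2 fold changes of -0.68 ± 0.11 and -0.80 ± 0.11 (edgeR adjusted p = 1.98e-06 and 6.98e-08). Nptx1 (chromosome 11, 119429545 to 119438579), a neuronal pentraxin that clusters glutamate receptors, had 252, 237 and 249 CPM in the PBS libraries, 353, 342 and 347 CPM 1 day after LPS and 387, 393 and 403 CPM at 7 days. It was higher in every LPS library than in every PBS library, with log2 fold changes of 0.50 ± 0.04 and 0.68 ± 0.04 (edgeR adjusted p = 7.02e-16 and 1.99e-21).

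**Figure D3:**
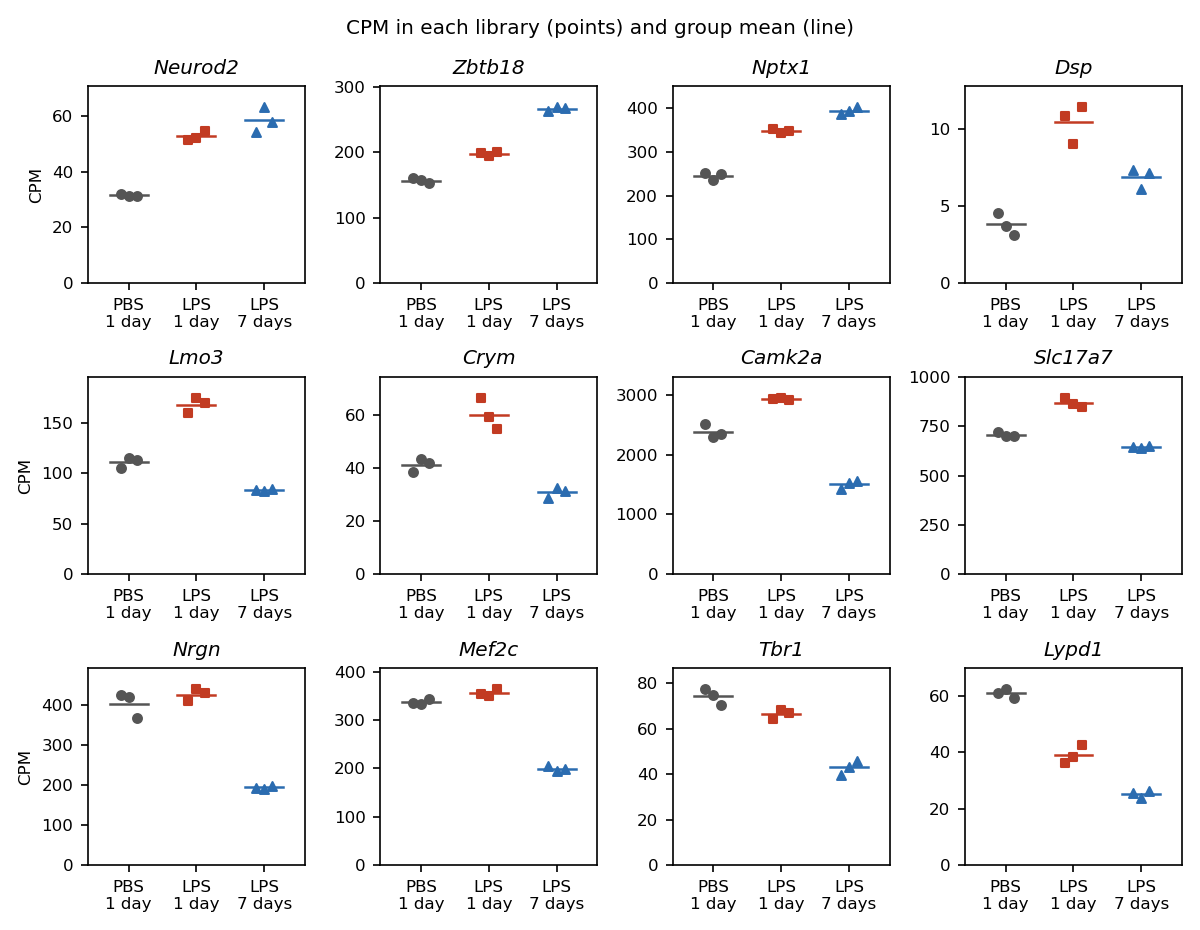
CPM of 12 members in each of the 9 libraries (points) with the group mean (line); each panel has its own axis from 0. Neurod2, Zbtb18 and Nptx1 are higher in both LPS groups than in PBS, Lmo3, Crym, Camk2a and Slc17a7 are highest at day 1 and lowest at day 7, and Nrgn falls from 367 to 424 CPM in PBS to 191 to 199 CPM at 7 days.

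Further pallial genes were taken from a second list of 30 that shares no member with the first. Called either way were 60.0% of the 30 at 1 day and 86.7% at 7 days. For this and each list below, the shares over all genes tested are 49.1% at 1 day and 35.6% at 7 days. At 1 day 8 of 30 rose, 10 fell and 12 did not pass (median log2 fold change 0.03), and the summed level was 5484 to 5505 CPM in PBS and 5245 to 5336 CPM after LPS. The 2 with the smallest p were Arpp19, a phosphatase inhibitor, with a log2 fold change of -0.56 ± 0.05, and Bcl11b, a factor of deep-layer and striatal projection neurons, with one of -0.43 ± 0.05 (edgeR adjusted p = 7.76e-15 and 7.05e-11). At 7 days 21 of 30 fell, 5 rose and 4 did not pass (median log2 fold change -0.40), with a summed level of 4140 to 4247 CPM. Neurod1, which cerebellar granule cells express strongly and which also stands in the cerebellar list, rose to 88.7, 76.7 and 88.4 CPM from 6.82, 7.40 and 7.70 CPM in PBS (log2 fold change 3.54 ± 0.09, edgeR adjusted p = 1.24e-35). Etv1, a factor of layer 5 neurons that granule cells of the cerebellum express as well, had a log2 fold change of 1.18 ± 0.05 (edgeR adjusted p = 1.37e-26).

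A list of 18 further hippocampal genes had 8 rises, 1 fall and 9 that did not pass at 1 day (median log2 fold change 0.25). The 2 smallest p were those of Dcn, a matrix proteoglycan that fibroblasts make in quantity, at 0.86 ± 0.07 and Dkk3, a secreted Wnt modulator, at 0.54 ± 0.05 on the log2 scale (edgeR adjusted p = 1.16e-14 and 3.15e-14). At 7 days 4 rose, 4 fell and 10 did not pass (median log2 fold change -0.03), 44.4% called beside 35.6% of all genes tested. With library totals, with DESeq2 or without LPS 7 day replicate 3, 2 fell. Calb1, a calcium buffer of dentate granule cells and of cerebellar Purkinje cells, had a log2 fold change of 0.71 ± 0.04, and Pdzd2 one of -0.50 ± 0.05 (edgeR adjusted p = 6.28e-20 and 1.24e-11). The summed level of these 18 genes was 705 to 752 CPM in PBS, 798 to 838 CPM 1 day after LPS and 803 to 816 CPM at 7 days.

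Genes of neighbouring regions changed too. Of 15 striatal projection neuron genes, 13 fell and 2 did not pass at 1 day, and all 15 fell at 7 days (median log2 fold change -0.76 and -1.16), with summed levels of 2443 to 2505 CPM in PBS, 1582 to 1587 CPM 1 day after LPS and 1117 to 1158 CPM at 7 days. Adora2a, an adenosine receptor of these neurons, had 115, 122 and 119.8 CPM in the PBS libraries, 60.2, 53.8 and 52.2 CPM 1 day after LPS and 53.0, 51.6 and 50.9 CPM at 7 days. Pde10a, a phosphodiesterase, had a log2 fold change of -0.98 at 1 day, and the phosphatase inhibitor Ppp1r1b one of -1.34 at 7 days. None of the striatal genes had 0 counts in any library, and the part of striatal tissue in the members' values was not tested.

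Of 18 thalamic neuron genes, 8 fell and 4 rose at 1 day with 6 not passing, and 13 fell and 3 rose at 7 days with 2 not passing (median log2 fold change -0.03 and -0.40). Their summed level was 1621 to 1649 CPM in PBS, 1540.0 to 1562 CPM 1 day after LPS and 1386 to 1401 CPM at 7 days, and no gene was at 0 in any library. Tcf7l2, the defining factor of thalamic neurons, had 66.3, 69.2 and 65.6 CPM in the PBS libraries, 42.4, 50.1 and 56.7 CPM 1 day after LPS and 36.2, 45.9 and 39.6 CPM at 7 days. It fell at both times, with log2 fold changes of -0.42 and -0.72 (edgeR adjusted p = 2.41e-06 and 5.42e-12). Without LPS 1 day replicate 2, 2 rose at 1 day. The smallest p at 1 day belonged to Slc17a6 and Rgs16, a regulator of G protein signalling, with log2 fold changes of -0.55 ± 0.05 and -0.73 ± 0.09 (edgeR adjusted p = 2.15e-14 and 3.18e-09). At 7 days it belonged to Calb2, a calcium buffer of PVT and of cerebellar granule cells, and Patj, at 0.72 ± 0.05 and 0.81 ± 0.05 on the log2 scale (edgeR adjusted p = 1.89e-18 and 4.06e-18).

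Cerebellar genes set the 7 day libraries apart. All 18 genes of the cerebellar list rose at 7 days (median log2 fold change 3.02), and their summed level was 788 to 826 CPM in PBS, 728 to 746 CPM 1 day after LPS and 2602 to 2632 CPM at 7 days. Gabra6, a GABA receptor subunit of granule cells, had 167, 159.7 and 165 CPM at 7 days and at most 0.136 CPM in the other libraries. The 2 smallest p were those of Cbln3 and Fat2, both granule cell genes, at 315, 312 and 318 and 222, 238 and 251 CPM at 7 days and 0.470, 0.570 and 0.409 and 0.294, 0.00 and 0.204 CPM in PBS. At 1 day 2 of the 18 rose, 5 fell and 11 did not pass, and between 0 and 2 of them had no count in a given PBS or day 1 LPS library. The share called at 1 day was 38.9%, below the 49.1% of all genes tested. Without LPS 1 day replicate 1 the rises were 5, and without replicate 3 there was 1. The 2 smallest p at 1 day were those of Cbln1, a synaptic organizer of granule cells (log2 fold change -0.39 ± 0.05), and Crtam, also a gene of cytotoxic T cells, with 0, 0 and 2 counts in PBS and 63, 68 and 71 counts after LPS. Of the summed cerebellar level, Itpr1 alone had a mean of 541 CPM in PBS and 488 CPM 1 day after LPS. Neurod2 and Slc17a7, which granule cells express, had log2 fold changes of 0.75 and 0.30 at 1 day and of 0.89 and -0.13 at 7 days. The part of cerebellar tissue in the members' 7 day values, those of Zbtb18 and Nptx1 included, was not tested.

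General neuronal genes served as a gauge of neuronal RNA. Their summed level over 16 genes was 11692 to 11969 CPM across all 9 libraries, and the 3 groups overlapped. At 1 day 3 of 16 rose, 10 fell and 3 did not pass (median log2 fold change -0.15), and at 7 days 8 rose, 4 fell and 4 did not pass (median log2 fold change 0.10). The 2 smallest p at 1 day were those of Tubb3, a neuronal tubulin, and Nefm, with log2 fold changes of -0.46 and -0.41. The neurofilament gene Nefm had a log2 fold change of 0.54 ± 0.04 and the vesicle calcium sensor Syt1 one of -0.41 ± 0.03 at 7 days (edgeR adjusted p = 1.2e-16 and 3.71e-16). Among 16 telencephalic interneuron genes, which include the member Prox1, 1 rose, 7 fell and 8 did not pass at 1 day, and 2 rose, 12 fell and 2 did not pass at 7 days (median log2 fold change -0.15 and -0.56). The 1 rise at 1 day was lost without PBS replicate 2 or LPS 1 day replicate 2 or 3. Their summed level was 1517 to 1537 CPM in PBS, 1341 to 1362 CPM 1 day after LPS and 1366 to 1402 CPM at 7 days. The 2 smallest p at 1 day were those of Slc32a1, the vesicular GABA transporter, and Sst, a neuropeptide, with log2 fold changes of -0.46 ± 0.05 and -0.33 ± 0.05 (edgeR adjusted p = 7.6e-12 and 4.7e-07). At 7 days they were those of Pvalb, also abundant in Purkinje cells, and Kit, at 2.16 ± 0.06 and 0.78 ± 0.05 on the log2 scale (edgeR adjusted p = 6.01e-33 and 2.88e-17).

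**Figure D4:**
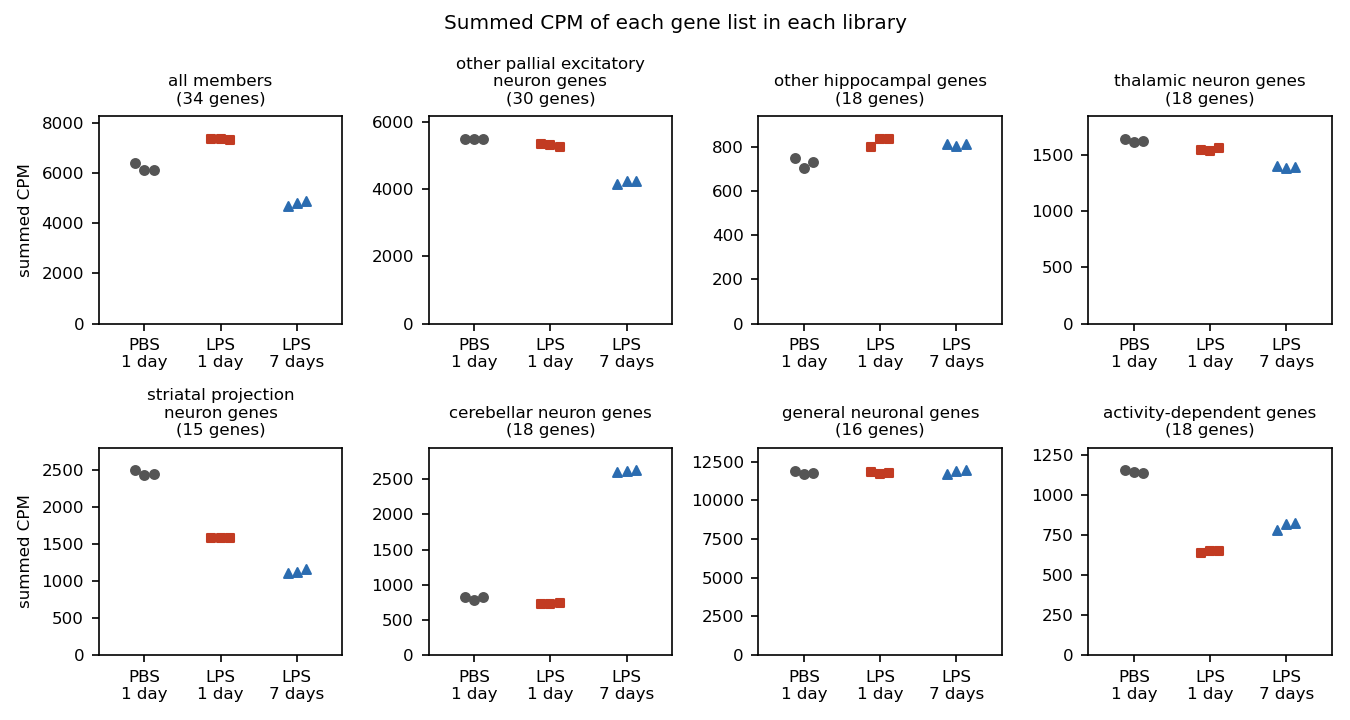
Summed CPM of 8 gene lists in each of the 9 libraries (points), each panel with its own axis from 0. The 34 members are highest 1 day after LPS and lowest at 7 days, striatal genes fall from 2443 to 2505 CPM in PBS to 1117 to 1158 CPM at 7 days, and cerebellar genes rise to 2602 to 2632 CPM.

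Activity-dependent genes were compared because some synaptic members respond to neuronal activity. At 1 day 17 of 18 fell and 1 did not pass (median log2 fold change -0.87), and at 7 days 13 fell and 5 did not pass (median log2 fold change -0.47), with summed levels of 1134 to 1156 CPM in PBS, 638 to 650.4 CPM 1 day after LPS and 783 to 826 CPM at 7 days. Arc, a synaptic gene driven by activity, had a log2 fold change of -1.20 ± 0.05 and Egr1, an activity-induced factor, one of -1.17 ± 0.05 at 1 day (edgeR adjusted p = 7.32e-27 and 3.15e-26). At 7 days Egr1 and its relative Egr3 had log2 fold changes of -0.73 ± 0.05 and -0.69 ± 0.05 (edgeR adjusted p = 7.31e-19 and 7.53e-16). Nptx1 had a log2 fold change of 0.68 ± 0.04 at 7 days (edgeR adjusted p = 1.99e-21). Nptx2, its activity-induced relative, had one of -0.79 ± 0.07 at the same time (edgeR adjusted p = 5.29e-14).

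Glial and vascular genes were compared with the same background, 49.1% of all genes tested called either way at 1 day and 35.6% at 7 days. Of 10 oligodendrocyte genes, 8 fell and 1 rose at 1 day, and 8 rose and 2 did not pass at 7 days (edgeR; without PBS replicate 3 or LPS 7 day replicate 1, 1 fell). Their summed level was 7193 to 7600 CPM in the 6 day 1 libraries and 9641 to 10256 CPM at 7 days. The myelin genes Cnp and Mobp had log2 fold changes of -0.40 and 0.33 at 1 day, and Mobp and Mbp of 0.58 and 0.50 at 7 days. Astrocyte genes had 6 rises and 3 falls of 10 at 1 day and 6 rises and 1 fall at 7 days, with summed levels of 3824 to 3931 CPM in PBS, 4250.2 to 4279 CPM 1 day after LPS and 4238 to 4315 CPM at 7 days. Without LPS 1 day replicate 3, 1 astrocyte gene fell at 1 day. By p-value the first astrocyte genes were Gjb6 and S1pr1 at 1 day (log2 fold changes 0.74 and -0.36) and Aldoc and Aqp4 at 7 days (0.68 and 0.70). Microglial genes had 4 rises and 2 falls of 10 at 1 day and 1 fall at 7 days, the latter below the background share, and endothelial genes 5 rises and 4 falls, then 5 rises and 1 fall. The microglial fall at 7 days was lost without PBS replicate 3 or LPS 7 day replicate 3, and without LPS 7 day replicate 2 there were 2 falls. The microglial genes C1qb and P2ry12 had log2 fold changes of 1.19 and -1.03 at 1 day, and P2ry12 and Csf1r of -0.25 and 0.09 at 7 days, where Csf1r did not pass. For the endothelial genes Cdh5 and Ly6c1 they were 1.27 and 0.75 at 1 day, and for Cldn5 and Slc2a1 0.97 and -0.25 at 7 days. Summed microglial levels were 271 to 292 CPM in PBS, 315 to 333 CPM 1 day after LPS and 270.5 to 274 CPM at 7 days, where they overlapped with PBS, and endothelial levels 417 to 422 CPM, 465 to 482 CPM and 443 to 470.3 CPM. Their part in the members' values was not tested.

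The third comparison, LPS at day 7 against LPS at day 1, has no PBS library in it, and both groups held Y-linked transcripts. Of the 34 members 23 fell, 3 rose and 8 did not pass (edgeR quasi-likelihood), against 29.1% of all genes tested called lower, 27.5% higher and 56.6% either way. Libraries did not overlap for 26 members, 2 higher and 24 lower, against 60.6% of all genes tested (29.5% higher and 31.1% lower). The median log2 fold change was -0.41 for the members and 0.00 for all genes tested. At least 1.5-fold falls were found for 11 members (10.3% of all genes tested) and such rises for none (9.32%). By role, 7 of 9 synapse and signalling genes, 9 of 11 layer genes, 4 of 6 hippocampal genes and 3 of 8 identity factors fell. Camk2a and Nrgn had log2 fold changes of -0.96 ± 0.03 and -1.14 ± 0.04, and Lmo3 one of -1.01 ± 0.05 (edgeR adjusted p = 1.3e-29, 2.31e-28 and 1.81e-24). The other 3 called, all higher, were Zbtb18, Nptx1 and Neurod2, with log2 fold changes of 0.43 ± 0.04, 0.18 ± 0.04 and 0.15 ± 0.06 (edgeR adjusted p = 1.55e-13, 3.28e-05 and 0.0389). The rise of Neurod2 was lost with DESeq2 (adjusted p = 0.0549) and without LPS 1 day replicate 1 or 2 or LPS 7 day replicate 2 or 3 (edgeR adjusted p = 0.114, 0.0971, 0.286 and 0.0593).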

How the data were processed

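Gene expression was measured by RNA sequencing of PVT tissue in 9 libraries. Per the labels, Trizol was used for extraction and a TruSeq kit for the libraries. The authors deposited raw gene counts, with TopHat2, HISAT2 and HTSeq and the build GRCm39 named in the submitters' processing notes; their versions, strandedness and the annotation release are not stated. The deposited FPKM values were scaled by the authors to gene length and library total, and recomputing them from counts and lengths gave a largest relative difference of 1.6e-07. The deposited length column, which holds other values (bases), was used as given. Coordinates are 1-based.

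Counts of all 9 libraries were fitted with edgeR 4.0.16 quasi-likelihood (R 4.3.3; filterByExpr; TMM factors 0.983 to 1.03; 1 mean per group; 6 residual and 43.4 prior degrees of freedom), and the 3 comparisons were two-sided contrasts with Benjamini-Hochberg adjustment over 14837 genes and a threshold of 0.05. Of 21899 genes, 3516 had no count. CPM are TMM-scaled, and the SE is the log2 fold change divided by the square root of F. The method was tested on simulated counts. Members, lists and role groups were chosen with earlier results of these data known. By rule every member is named, with values per library for the 3 members of each role with the smallest p at 1 day and at 7 days and for those called in opposite directions. From each other list the 2 smallest p are named, except 1 result not reported here, with Gabra6, Adora2a and Tcf7l2; Gbx2 and Nptx2, the 1.5-fold limit, the sum without Camk2a and the values per library of Tbr1, Emx1, Prox1, Icam5 and Hs3st2 were chosen after values were seen. The name Nov of the hippocampal list matched no row. Within groups, chi-square per degree of freedom between replicates was 2.02 to 3.71, above sampling noise. Alternatives were library totals, RLE and upper-quartile scaling, no filter, DESeq2 1.42.0, 2 groups per fit, a replicate block and each library left out.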

Additional observations from a re-analysis of the deposited data

Results flagged for a closer look

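For 26 of the 34 genes the difference from the same PBS libraries was not the same at the 2 times after LPS, by the test of day 7 against day 1 itself (edgeR quasi-likelihood adjusted p under 0.05). These are 76.5% of the members, beside 56.6% of all genes tested. PBS at day 7 was not analysed here, and the cerebellar list was higher at 7 days only, so time cannot be told apart from what else differed between these libraries. Over all genes tested, 24.9% were called higher at 1 day and 18.9% lower at 7 days, and the share with both calls was not counted. For 8 of the 26 members the calls against PBS had opposite signs, higher at 1 day and lower at 7 days: Camk2a, Slc17a7, Sv2b, Itpka, Lmo3, Lmo4, Crym and Wfs1. Their log2 differences of day 7 against day 1 were, in that order, -0.96, -0.43, -0.58, -0.56, -1.01, -0.70, -0.96 and -0.62. Lower at day 7 than at day 1 were also Nrgn (-1.14), Mef2c (-0.84), Icam5 (-0.78), Tbr1 (-0.63), Lypd1 (-0.63), Dsp (-0.60), Rasgrf2 (-0.48), Neurod6 (-0.42), Fibcd1 (-0.41), Rprm (-0.41), C1ql3 (-0.41), Fezf2 (-0.37), Tle4 (-0.36), Cux2 (-0.35) and Rorb (-0.28). Higher at day 7 were Zbtb18 (0.43), Nptx1 (0.18) and Neurod2 (0.15). The calls of Fezf2 and C1ql3 were lost without LPS 1 day replicate 2 (edgeR adjusted p = 0.0686 and 0.134).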

How the results depend on the processing

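Over the alternatives other than leaving out a library, members called at 1 day stayed at 17 higher and 4 lower; at 7 days against PBS they were 5 to 6 higher and 20 to 21 lower, and at 7 days against 1 day 2 to 3 higher and 23 lower. Leaving out 1 library gave 16 to 18 higher and 3 to 5 lower at 1 day, 4 to 5 and 19 to 21 at 7 days, and 2 to 3 and 21 to 24 for 7 days against 1 day. Under these settings 28, 30 and 29 of 34 members kept their call in the 3 comparisons, and no called member changed sign. A change of sign in a member that passed under neither setting was not counted. Whether replicate numbers in the titles pair libraries was not settled with 3 libraries per group. Correlations of deviations from the group means were -0.0232 to 0.0270 for same-numbered libraries and -0.040 to 0.057 for the others. For LPS at day 7 against day 1, they were 0.0223 to 0.0261 for same-numbered libraries and -0.0180 to -0.0067 for the others. With the replicate number as a block the members gave 17 higher and 4 lower, 5 and 21, and 3 and 23 calls, and over all genes 3637 higher and 3507 lower at 1 day. Depth limits Emx1, Emx2 and Dsp, with 33 to 188 counts per library.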
